A study of Mus musculus with 5 samples.

Results

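The dKO-only intergenic distal sites are DNase I hypersensitive sites that were called in naïve CD8+ T cells lacking Tcf1 and Lef1 and that had no counterpart in the WT peak list. They were selected on these readouts as autosomal peaks of the dKO list (chromosomes 1 to 19) that overlapped no WT peak by even 1 bp, whose summit lay more than 1000 bp from every annotated transcription start site (TSS) and outside every annotated gene body of the mm9 genome. The rule was met by 1471 of the 24881 autosomal dKO peaks. Of all autosomal dKO peaks, 13.8% overlapped no WT peak, and of the 7179 intergenic distal dKO peaks the share was 20.5% (95% Wilson interval 19.6 to 21.4). The absence of a WT peak and the strength in the dKO list chose the sites, so both are given below as description. The lack of a called WT peak does not show that a site was closed in WT cells, or that its accessibility differed.

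DNase-seq was performed on GFP+ TCRβ+ CD62Lhi CD44lo-med CD8+ splenocytes of WT mice (3 samples) and dKO mice (2 samples). WT mice carried hCD2-Cre and the Rosa26GFP reporter with intact Tcf7 and Lef1, and dKO mice carried the same Cre and reporter with Tcf7 fl/fl and Lef1 fl/fl, all on the C57BL/6 background. hCD2-Cre is active mostly in mature T cells, so the genes were lost after thymic development, and GFP marked the cells in which Cre had acted, in WT cells too. The samples of each genotype had been pooled before peak calling, so no spread between replicates exists and no test between genotypes was made. Each interval given is a 95% Wilson interval of a share of sites and reflects counting error alone. The WT pool held 83923734 fragments and the dKO pool 62242963, which made the WT pool 1.35 times as deep. Promoter peaks were present at 10 of 10 T cell marker genes in the WT list and 9 of 10 in the dKO list (Cd3d had none there), at 0 of 6 B cell and 0 of 4 NK cell marker genes in both lists, at 1 and 0 of 5 myeloid marker genes, and at 2 and 1 of 4 erythroid marker genes.

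Tcf1 and Lef1 are HMG box proteins that bind a short A/T-rich sequence and help to keep T cell genes active and genes of other lineages silent. DNase I cuts DNA that is not wrapped in nucleosomes, so a peak away from promoters usually marks an enhancer, a silencer or a site bound by CTCF, the zinc finger protein that holds chromatin loops and domain borders. CTCF protects a long stretch of DNA and gives narrow, sharp DNase peaks, whereas enhancers are bound by several factors, in T cells often of the Runx, Ets and AP-1 families, and give wider ones.

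The sequences of the strongest sites are shown first because they carry a word whose share differed with the strength of the sites. The 3 sites with the highest fold enrichment lay at chr16:87285191-87285455, 69.2 kb upstream of N6amt1, at chr10:120953439-120953551, between Rassf3 and Tbk1, and at chr4:6488841-6488948, 107 kb upstream of Nsmaf and 125 kb from Tox. Below is each summit with 60 bp on either side (plus strand, mm9, 5′ to 3′). Capitals mark a match, on either strand, to a CTCF-like word of 12 bases with 6 fixed letters: CC, any 4 bases, G, any 2 bases, GGC. It is a loose form of the core sequence bound by CTCF.
N6amt1 site: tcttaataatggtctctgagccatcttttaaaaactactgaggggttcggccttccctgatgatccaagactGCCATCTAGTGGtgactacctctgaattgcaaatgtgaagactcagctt
Rassf3 site: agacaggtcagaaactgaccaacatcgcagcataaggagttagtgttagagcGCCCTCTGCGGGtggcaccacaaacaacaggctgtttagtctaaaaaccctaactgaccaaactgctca
Nsmaf site: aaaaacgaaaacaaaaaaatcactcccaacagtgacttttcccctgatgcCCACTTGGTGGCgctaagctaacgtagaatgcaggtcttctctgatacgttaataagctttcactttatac

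For contrast, 4 sites without the word at the summit are shown in the same layout. They are those, among the sites described below, whose ATCAAAG (Tcf/Lef) or TGANTCA (AP-1) match lay nearest to the summit, with that match in capitals: chr5:101012238-101012420 upstream of Plac8, chr13:33163740-33164055 upstream of Serpinb1b, chr9:43849277-43849432 upstream of Thy1 and chr3:107599586-107599734 upstream of Csf1. The Tcf/Lef match lay 23 bp to the right of the summit at the Plac8 site and 54 bp to its left, on the minus strand, at the Serpinb1b site. Plac8 and Csf1 are among the genes raised in dKO cells.
Plac8 site: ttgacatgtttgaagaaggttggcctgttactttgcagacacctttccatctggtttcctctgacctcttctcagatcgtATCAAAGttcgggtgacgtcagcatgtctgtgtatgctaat
Serpinb1b site: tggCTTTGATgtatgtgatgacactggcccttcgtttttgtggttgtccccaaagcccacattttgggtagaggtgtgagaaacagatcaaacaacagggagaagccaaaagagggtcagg
Thy1 site: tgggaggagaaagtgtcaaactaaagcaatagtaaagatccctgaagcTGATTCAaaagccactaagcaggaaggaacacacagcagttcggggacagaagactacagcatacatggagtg
Csf1 site: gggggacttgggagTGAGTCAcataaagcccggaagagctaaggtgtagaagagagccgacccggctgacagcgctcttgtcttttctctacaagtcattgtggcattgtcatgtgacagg

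As a description of what chose them, the dKO-only intergenic distal sites were mostly weak. MACS2 fold enrichment, which divides the pileup of fragments at the summit by that expected from its surroundings, had a median of 5.49 (quartiles 4.38 and 7.10) and reached 18.1, and the pileup had a median of 25 fragments (range 13 to 257) against 42 for the 5708 shared intergenic distal sites. Ranked by fold enrichment in the dKO list, 83.4% of the sites stood in the lower 50% and 30% in the lowest 10%, whereas 11 stood in the top 10%. Among intergenic distal dKO peaks of the lowest 10%, 52.9% had no WT peak, and among those of the top 10%, 2.09%. The criteria of the study for an accessible site (fold enrichment of at least 4, p under 1e-05, q under 0.05) were met by 1268 sites, or 86.2%. At the distance limit of the rule, the nearest sites inside lay 1006 bp from a TSS of Gadd45g, 1046 bp from Stat6 and 1057 bp from Wnt10b, and the nearest excluded dKO-only peaks lay at 996, 978 and 973 bp, with fold enrichments of 5.52, 6.30 and 12.8.

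Many of the strongest sites carried a CTCF-like word at their centre. The 12 strongest were 98 to 265 bp wide, and the strongest of all was the widest of them. The CTCF-like word was added to the search after the sequences of the 3 strongest sites had been seen, so these sites lend it no support. It was found within 20 bp of the summit in 307 of the 1471 sites (20.9%, 18.9 to 23.0), in 24.0% of the shared sites (22.9 to 25.1) and in 23.6% of the 2989 WT-only intergenic distal sites (22.1 to 25.1). Of all autosomal peaks, 17.8% of the dKO list and 18.6% of the WT list held it within 20 bp. Within 100 bp it was in 27.0% of the dKO-only intergenic distal sites and in 29.4% of the autosomal peaks of either list. Of 468 matches within 100 bp of the summits of the dKO-only sites, 352 (75.2%) lay within 20 bp of the summit.

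The share with the word went with strength. It was 7.89% (6.02 to 10.3) among the 621 dKO-only intergenic distal sites with a fold enrichment under 5. Among the 170 sites between 8 and 10 it was 44.7% (37.4 to 52.2), and among the 36 sites at 12 or more it was 72.2% (56.0 to 84.2), or 23 of 33 sites (69.7%, 52.7 to 82.6) without the 3 sites from which the word was taken. Shared sites in the same bins held the word less often at the upper end, with 27.1% (24.6 to 29.8) between 8 and 10 and 38.8% (36.0 to 41.6) at 12 or more. In both bins the 2 kinds of site had intervals that did not overlap, also without these 3 sites. The bin at 12 or more has no upper limit, and shared sites in it reached a fold enrichment of 78.3, against 18.1 for dKO-only sites. Among peaks of at most 110 bp the shares were close and their intervals overlapped: 53.1% (41.1 to 64.8) of dKO-only and 50.9% (43.3 to 58.5) of shared sites between 8 and 10, and 69.2% (42.4 to 87.3) and 69.7% (58.7 to 78.9) at 12 or more. The difference was thus found in wider peaks, with 39.6% (30.8 to 49.1) against 23.2% (20.6 to 25.9) between 8 and 10. WT-only sites had values close to those of the dKO-only sites, 46.9% (41.8 to 52.1) between 8 and 10 and 59.7% (50.5 to 68.2) at 12 or more, with overlapping intervals. Strength was measured within each pool, so equal fold enrichments in the WT and dKO lists need not mean equal accessibility.

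**Figure D1:**
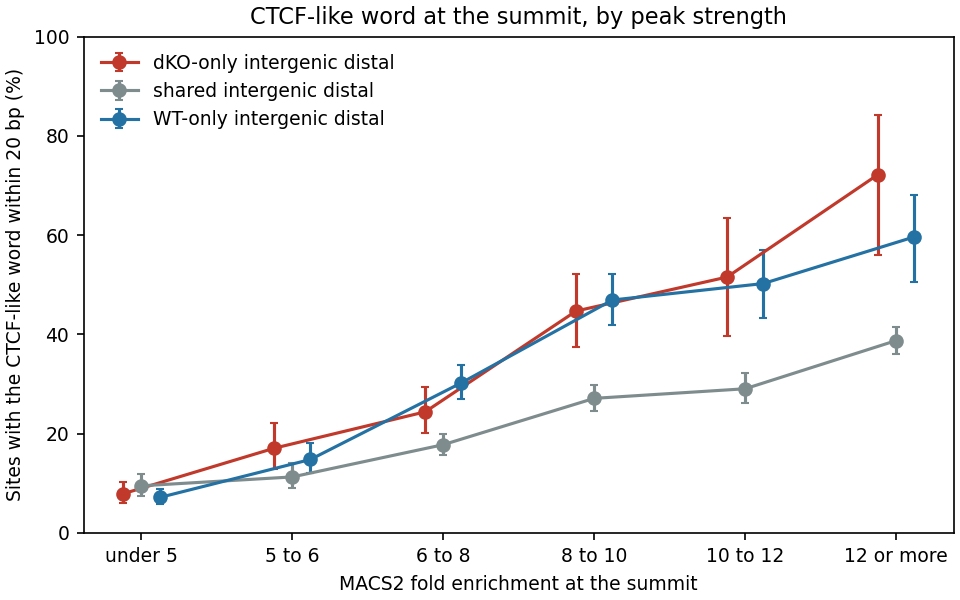
Share of intergenic distal sites with the CTCF-like word within 20 bp of the summit (y axis, percent, with 95% Wilson intervals) in bins of MACS2 fold enrichment (x axis), for dKO-only, shared and WT-only sites. The dKO-only and WT-only points run together from below 10% to 72.2% and 59.7%, and shared sites end at 38.8%. The last dKO-only point includes the 3 sites from which the word was taken.

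Of the 12 strongest sites, 9 held the word within 20 bp of the summit, 3 of them being the sites it was taken from. The other 6 lay near Olfr655 (chr7:111751841-111751942, 71 fragments at the summit, 2 bp away), Gcnt4 (chr13:97625291-97625397, 64 fragments, 9 bp), Nfkbia (chr12:56607072-56607169, 63 fragments, 6 bp), 1600029D21Rik (chr9:50271053-50271286, 61 fragments, 1 bp), Khdc1a (chr1:21334524-21334628, 61 fragments, 17 bp) and within the T cell receptor β locus (chr6:41087123-41087364, 68 fragments, 1 bp). The remaining 3 lay near Kcnd3 (70 fragments), Ppfia2 (63 fragments) and AA467197 (87 fragments). The Ppfia2 site stood in repeated sequence: 79.5% of the 31-base words within 100 bp of its summit occur more than once in the genome. Gcnt4, a glycosyltransferase gene, was the 1 gene of the 12 in the list of genes that the study's RNA-seq found raised in dKO cells. Nfkbia encodes the NF-κB inhibitor IκBα, and its site lay 13.5 kb upstream of the gene and 6.88 kb from the nearest WT summit.

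Width rose with strength in shared sites, and it did not do so in dKO-only or WT-only sites. The dKO-only intergenic distal sites had a median width of 125 bp, against 178 bp for shared and 140 bp for WT-only sites, and 30.9% (28.6 to 33.3) were at most 110 bp wide, close to the fragment size of 97 bp, against 11.9% (11.1 to 12.8) of shared and 22.2% (20.8 to 23.7) of WT-only sites. Under a fold enrichment of 5, 29% of dKO-only and 15.1% of shared sites were this narrow. At 10 or more, 41.0% (31.9 to 50.8) of the 100 dKO-only and 8.92% (7.75 to 10.2) of shared sites were. The dKO-only sites with the CTCF-like word had a median width of 115 bp and a median percentile of 40.8 in the dKO list, and those without it had 130 bp and percentile 16.9.

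**Figure D2:**
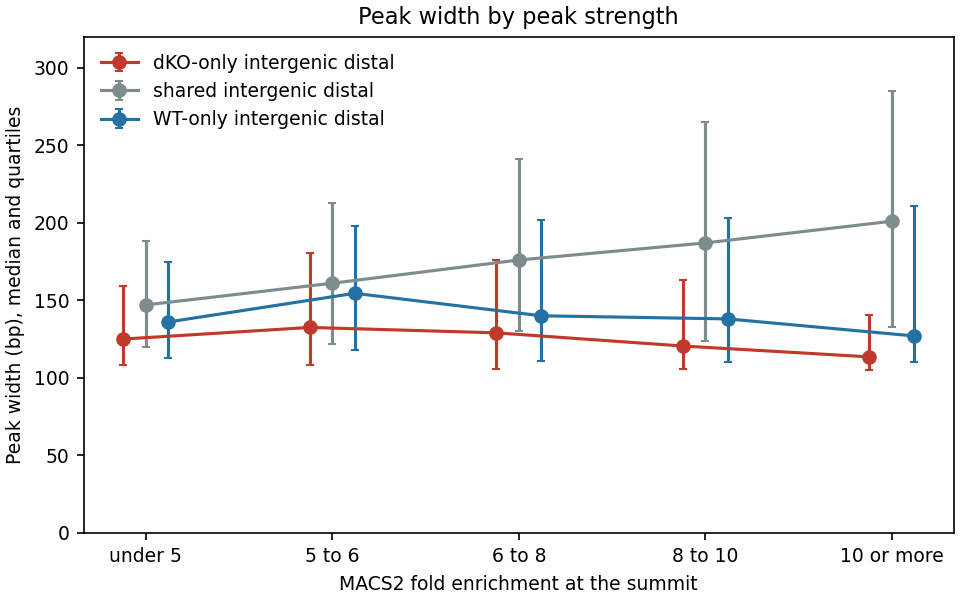
Median peak width (y axis, bp, bars from the lower to the upper quartile) in bins of MACS2 fold enrichment (x axis) for dKO-only, shared and WT-only intergenic distal sites. Medians of dKO-only sites stay between 114 and 132.5 bp and those of WT-only sites between 127 and 154.5 bp. Medians of shared sites start at 147 bp and are higher in each stronger bin.

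The Tcf/Lef motif was not more frequent in the dKO-only intergenic distal sites than in the shared sites. ATCAAAG or its reverse complement was found within 100 bp of the summit in 42 sites (2.86%, 2.12 to 3.84), against 3.17% (2.75 to 3.66) of shared and 7.39% (6.51 to 8.39) of WT-only sites, and 2.46% of all autosomal dKO peaks. Of the 42 matches, 2 (4.76%) lay within 20 bp of the summit. In shared sites 25 of 184 matches (13.6%) did so, and in WT-only sites 41 of 235 (17.4%). The dKO-only value rests on 2 matches, so a difference in placement cannot be read from it. With shared sites weighted so that their strength and base composition matched, their share was 3.96%, which put the dKO-only sites at 0.722 times that level.

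Of 20 motifs searched, that of Runx, whose members direct CD8 lineage choice, was more frequent than in WT-only sites. TGTGGTT was found in 16.5% (14.6 to 18.4) of the dKO-only sites, 14.3% (13.4 to 15.2) of shared and 11.1% (10 to 12.2) of WT-only sites. The intervals of dKO-only and shared sites overlapped, and the dKO-only share was 0.958 times the matched level of shared sites. In dKO-only sites inside gene bodies the share was also 16.5%. CAGGAAG, the Ets motif, was found in 17.4% (15.6 to 19.4) against 22.1% (21.1 to 23.2) of shared and 20.2% (18.8 to 21.6) of WT-only sites. The AP-1 motif TGANTCA was found in 9.11% (7.74 to 10.7), 8.30% and 8.16%, with overlapping intervals. In all autosomal dKO peaks these shares were 10.7%, 18.3% and 6.43%.

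The Gata and Nr4a motifs were rarer. AGATAAG, bound by Gata factors such as Gata3, was in 3.60% (2.77 to 4.68) of the dKO-only sites against 2.38% (2.02 to 2.81) of shared and 2.58% (2.07 to 3.21) of WT-only sites, with overlapping intervals, and in 4.40% (3.45 to 5.59) of dKO-only sites inside gene bodies. It stood at 1.37 times the level of shared sites at matched strength and GC content. AAAGGTCA, an element bound by the orphan nuclear receptors of the Nr4a family, was in 1.70% (1.15 to 2.50) against 0.823% (0.620 to 1.09) of shared sites, with intervals that did not overlap, and 0.870% (0.594 to 1.27) of WT-only sites, with intervals that did. The share in dKO-only intergenic distal sites was 1.91 times the matched level, though with 25 such sites in all. In dKO-only sites inside gene bodies it was 0.698% (0.380 to 1.28), close to that of shared sites. Lower than in shared sites were GGGCGG (Sp family), with 5.30% against 12.2%, and GGGNNTTCC (NF-kB), with 2.45% against 4.29%, at 0.631 and 0.627 times the matched level. In all autosomal dKO peaks the shares of these 4 motifs were 1.961%, 0.756%, 28.5% and 4.45%, where Sp matches come mainly with promoters. Median GC content within 100 bp of the summit was 46.3% in dKO-only, 49.8% in shared and 49.3% in WT-only sites. All motifs were searched on both strands, and a match is no evidence that the factor was bound.

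**Figure D3:**
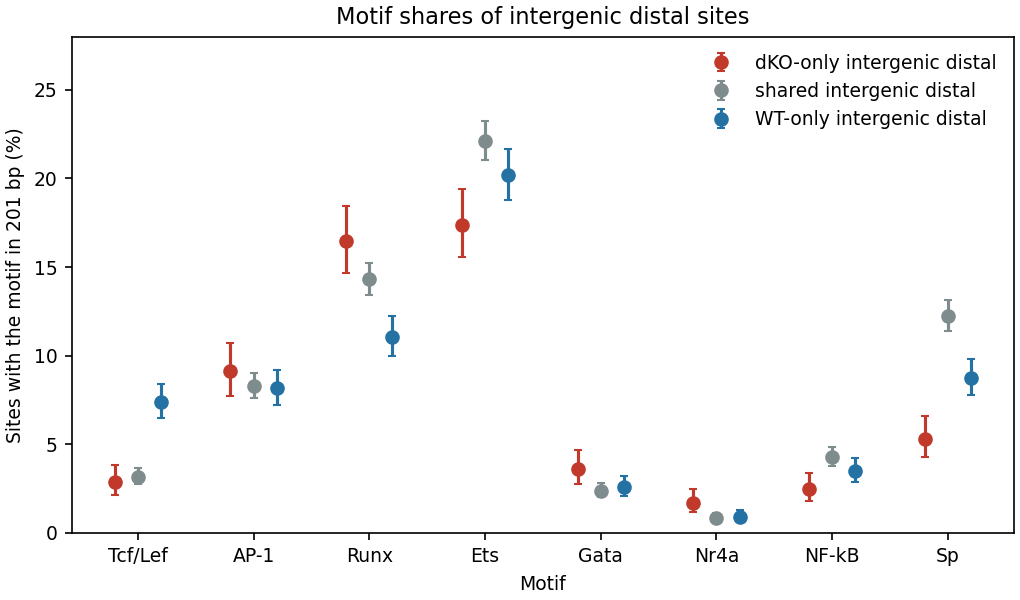
Share of intergenic distal sites (y axis, percent, with 95% Wilson intervals) that hold each of 8 motifs (x axis) within 100 bp of the summit, for dKO-only, shared and WT-only sites. The Tcf/Lef point of the dKO-only sites (2.86%) lies beside that of shared sites and below that of WT-only sites (7.39%), and their Ets and Sp points are the lowest of the 3 kinds of site.

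Other motifs were less frequent where the CTCF-like word lay at the summit, in shared and WT-only sites too. Where the CTCF-like word lay at the summit, TGTGGTT was in 8.47% (5.84 to 12.1) and CAGGAAG in 8.14% (5.58 to 11.7). In the 1164 sites without it, TGTGGTT was in 18.6% (16.4 to 20.9) and CAGGAAG in 19.8% (17.6 to 22.2). TGANTCA followed the same order, with 3.91% (2.25 to 6.71) and 10.5% (8.85 to 12.4). In shared sites TGTGGTT was in 5.92% with and 16.9% without the word, and CAGGAAG in 11.99% and 25.3%. In WT-only sites these values were 6.95% and 12.3%, and 10.2% and 23.2%.

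Sites without the CTCF-like word lay near genes raised in dKO cells more often than sites with it. The nearest protein-coding TSS belonged to a gene of the study's list of raised genes for 88 of the 1471 dKO-only sites (5.98%, 4.88 to 7.31), against 3.80% (3.34 to 4.33) of shared, 2.41% (1.92 to 3.02) of WT-only intergenic distal sites and 6.42% (5.27 to 7.82) of the dKO-only sites inside gene bodies. Of the dKO-only sites with the word, 7 of 307 (2.28%, 1.11 to 4.63) had such a neighbour, and of those without it, 81 of 1164 (6.96%, 5.63 to 8.57). In shared sites these shares were 2.997% (2.217 to 4.041) with and 4.055% (3.508 to 4.684) without the word, with overlapping intervals. In WT-only sites they were 1.702% (0.9763 to 2.951) and 2.627% (2.046 to 3.367), also overlapping. By width, the share of dKO-only sites was 3.52% (2.18 to 5.63) at widths of at most 110 bp. It was 8.47% (6.31 to 11.3) over 150 bp. Shared sites rose likewise, from 1.915% (1.122 to 3.248) to 4.216% (3.603 to 4.927). WT-only sites had 2.259% (1.374 to 3.694) and 3.251% (2.414 to 4.365), with overlapping intervals. Genes of the list of lowered genes were nearest to 23 dKO-only sites (1.56%, 1.04 to 2.33). The shares were 2.79% (2.39 to 3.25) of shared and 3.45% (2.85 to 4.16) of WT-only sites. Both gene lists are the study's own, from RNA-seq of the same genotypes.

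The 88 sites were shared among 62 raised genes. Maf, a transcription factor of cytokine-producing T cells, had 5 sites, the strongest of them 1.82 kb upstream of its TSS (chr8:118233456-118233554, 63 fragments, fold enrichment 9.15), 99 bp wide and with the CTCF-like word 2 bp from its summit. Atp2b1, a plasma membrane calcium pump gene, and Map3k8, a kinase gene of NF-κB signalling, had 4 each. Gata3, Plac8, Ccnj and Cxadr had 3 each, and those of Gata3, which drives type 2 helper T cell fate, lay 72.0 kb or more from its TSS. Fasl, Gzmb, Gzma, Ccl5, Cx3cr1, Ccr2, Il2ra and Ctla4, picked for their known roles in T cells after the values had been seen, had 1 site each, as had genes of other kinds such as Car2 and Aqp11. The 8 T cell genes had sites with fold enrichments between 4.07 (Gzma, 1.07 kb away) and 9.39 (Fasl, 52.6 kb away).

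**Figure D4:**
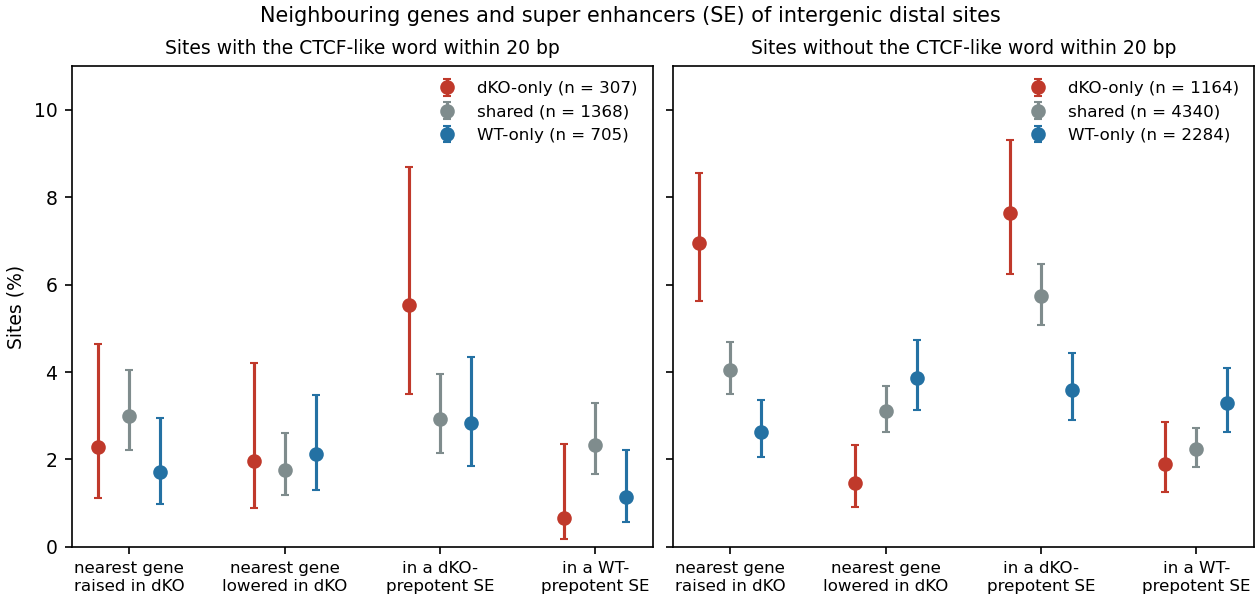
Share of intergenic distal sites (y axis, percent, with 95% Wilson intervals) whose nearest gene was raised or lowered in dKO cells, or that lay in a dKO-prepotent or WT-prepotent super enhancer linked to a gene of changed expression (x axis), for sites with the CTCF-like word within 20 bp of the summit (left) and without it (right). Among sites without the word, dKO-only points for raised genes (6.96%) and dKO-prepotent super enhancers (7.65%) lie above those of shared and WT-only sites.

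The study defined super enhancers (SE), long stretches with dense H3K27ac, and called those with stronger signal in 1 genotype prepotent. The lists used here hold a subset of them, the SEs that the study linked to genes of changed expression, so the shares below are those of SEs chosen in part by expression. The 88 dKO-prepotent SEs of this subset held 106 of the dKO-only intergenic distal sites (7.21%, 5.99 to 8.64), 5.06% (4.52 to 5.66) of shared and 3.41% (2.82 to 4.12) of WT-only sites. Of the dKO-only sites inside gene bodies they held a similar share, 6.98% (5.8 to 8.4). The 49 WT-prepotent SEs of the subset held 24 dKO-only sites (1.63%, 1.10 to 2.42), 2.26% of shared and 2.78% (2.25 to 3.43) of WT-only sites. Of the dKO-prepotent SEs, 48 held at least 1 dKO-only site, 27 held more dKO-only than WT-only sites, 24 held fewer and 37 held equal numbers. These are raw counts from 1471 dKO-only and 2989 WT-only sites, and SEs with none of either count as equal. Chromatin interaction hubs found in 1 genotype were likewise listed only where they held the promoter of such a gene (35 dKO-specific and 49 WT-specific hubs). The dKO-specific hubs held 12 dKO-only intergenic distal sites (0.816%, 0.467 to 1.42), 1.07% (0.833 to 1.37) of shared, 0.535% (0.330 to 0.868) of WT-only and 1.61% (1.07 to 2.40) of dKO-only sites inside gene bodies. Most of these hubs lay on chromosome 7, so their shares are largely shares of sites on that chromosome. The dKO-only share was above the shared one with q under 1e-10 (1.14% against 1.09%). It was also above with the 20000 peaks of highest −log10 p (1.26% against 1.04%), and below in the other settings. The WT-specific hubs held 8 (0.544%, 0.276 to 1.07), against 0.964% (0.741 to 1.25) of shared and 1.51% (1.13 to 2.01) of WT-only sites.

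The study also listed sites that differed in DNase signal and were linked to a gene with changed expression, and the copy analysed here may not hold every site. Since it compares the same DNase-seq samples, its direction is no independent evidence. It contained 40 of the dKO-only intergenic distal sites, 38 in its cluster 1 and 2 in its cluster 3. Cluster 1 thus took in 2.58% (1.89 to 3.53) of them, and 2.44% (1.76 to 3.38) of the dKO-only sites inside gene bodies. Of shared sites it took in 0.280% (0.173 to 0.455), and of WT-only intergenic distal sites 0%. The percentile of the 40 sites in the dKO list ran from 8.78 to 86.4 with a median of 36.9. Of the 40, 27 were over 150 bp wide and 1 was at most 110 bp wide. The nearest gene was the linked gene for 21 of them. The strongest was chr14:103394477-103394678, 51.6 kb upstream of Irg1 and linked to Kctd12 (56 fragments, fold enrichment 13.5), and it had the CTCF-like word 4 bp from its summit.

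Of the 40 sites, the following were picked for description after their values had been seen. A group of 4 dKO-only sites spanned 32.2 kb between Ccl5 and Ccl9, chemokine genes of T cells and myeloid cells. This stretch held 1 shared and no WT-only intergenic site. Not all of the 4 were among the 40, and those that were are given next. The site 6.70 kb upstream of Ccl5 (chr11:83350635-83350855) had 35 fragments, and those at chr11:83372320-83372466 and chr11:83373995-83374241 had 47 and 39. Sites were also linked to Klrb1c and Klrk1, which encode NK receptors, with 60 and 29 fragments, the second of them in sequence with 87.7% repeated words. The Serpinb9 site (chr13:33093281-33093514, 35 fragments), 1.67 kb upstream of the gene for a granzyme B inhibitor, and the Serpinb1b site shown above (48 fragments) were both linked to Serpinb9. The Id3 site (chr4:135656433-135656644, 43 fragments), upstream of an inhibitor of E proteins, had TGTGGTT 3 bp from its summit, and the Smad3 site (chr9:63633438-63633578) had 24 fragments, the fewest of the 40.

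A dKO-only site of cluster 3 lay 134 kb upstream of Lef1 itself, one of the deleted genes (chr3:130679212-130679415, 42 fragments, fold enrichment 6.98). The nearest WT summit stood 2.19 kb from it. Further sites of the 40 near named genes were at Csf1 (36.2 kb upstream, 30 fragments), Ptprj (3.10 kb upstream, 57 fragments), Depdc1b (17.9 kb upstream, 79 fragments) and Plac8 (11 kb upstream, 38 fragments). Csf1 encodes the growth factor of macrophages and Ptprj a receptor phosphatase.

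By family of immune genes, the dKO-only intergenic distal sites did not gather at any of the 6 groups looked up. T cell fate transcription factors had 32 sites at 15 genes (2.18%, 1.55 to 3.05), against 1.63% of shared and 1.81% of WT-only sites. The groups of chemokines and their receptors (11 sites), cytotoxic granule and NK receptor genes (11 sites), interleukins, interferons and their receptors (19 sites), costimulatory and inhibitory receptors (10 sites) and B cell and myeloid genes (5 sites) had shares between 0.340% and 1.29%, with intervals that overlapped those of shared sites. The strongest were at Maf, Id3 and Batf among transcription factors, at Cd28 (chr1:60759562-60759806, 14.0 kb upstream, 47 fragments) and Slamf7 among receptors, and at Ccl9 among chemokines. The strongest of the interleukin and interferon group, 16.2 kb from Il28a, had 87.1% repeated words, so its fragments may not belong to 1 place. The study's lists of genes enriched in other lineages gave a similar picture: NK cell genes were nearest to 3.40% (2.59 to 4.45) of dKO-only and 2.98% (2.57 to 3.45) of shared sites, and B cell genes to 1.90% and 1.93%.

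Most sites stood alone. Another dKO-only intergenic distal site lay within 50 kb of 28.3% (26.1 to 30.7), against 46.1% (44.4 to 47.9) for WT-only and 67.7% (66.5 to 69.0) for shared sites among themselves, which are 2989 and 5708 in number, so that a closer spacing goes with their number. The nearest WT summit lay at a median distance of 8236 bp, within 1 kb for 13.4% and beyond 100 kb for 11.1%. The nearest protein-coding TSS was more than 500 kb away for 60 sites (4.08%, 3.18 to 5.22), against 0.438% (0.297 to 0.646) of shared and 0.903% (0.622 to 1.31) of WT-only sites. Joined where neighbours lay within 50 kb, the sites formed 1229 stretches, of which 1054 held 1 site and 42 held 3 or more.

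The 3 stretches with most sites were of unlike kinds. The largest, 7 sites over 112 kb of chromosome 5 among the Speer4e, Gm10354 and Gm17019 genes, stood in copied sequence, with 33.3% to 100% repeated words per site, and held 15 WT-only and 14 shared sites too. Upstream of Tbl1xr1, a corepressor subunit gene, 6 sites spanned 39.3 kb with 1 WT-only and 3 shared intergenic sites among them. These 6 stood at percentiles from 5.47 to 39.9, with pileups from 30 to 51 fragments. Upstream of Thy1, the gene of a T cell surface protein, 6 sites spanned 65.7 kb with 1 WT-only and 3 shared intergenic sites. The strongest of these 6, 58.6 kb upstream (chr9:43792857-43792960, 47 fragments, percentile 74.8), had the CTCF-like word 1 bp from its summit. The site 2.09 kb upstream of Thy1, printed above, had 27 fragments. Tbl1xr1 and Btg1, an antiproliferation gene, were each nearest to 8 dKO-only sites, more than any other gene. Of the 1191 genes nearest to a site, 997 had 1.

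**Figure D5:**
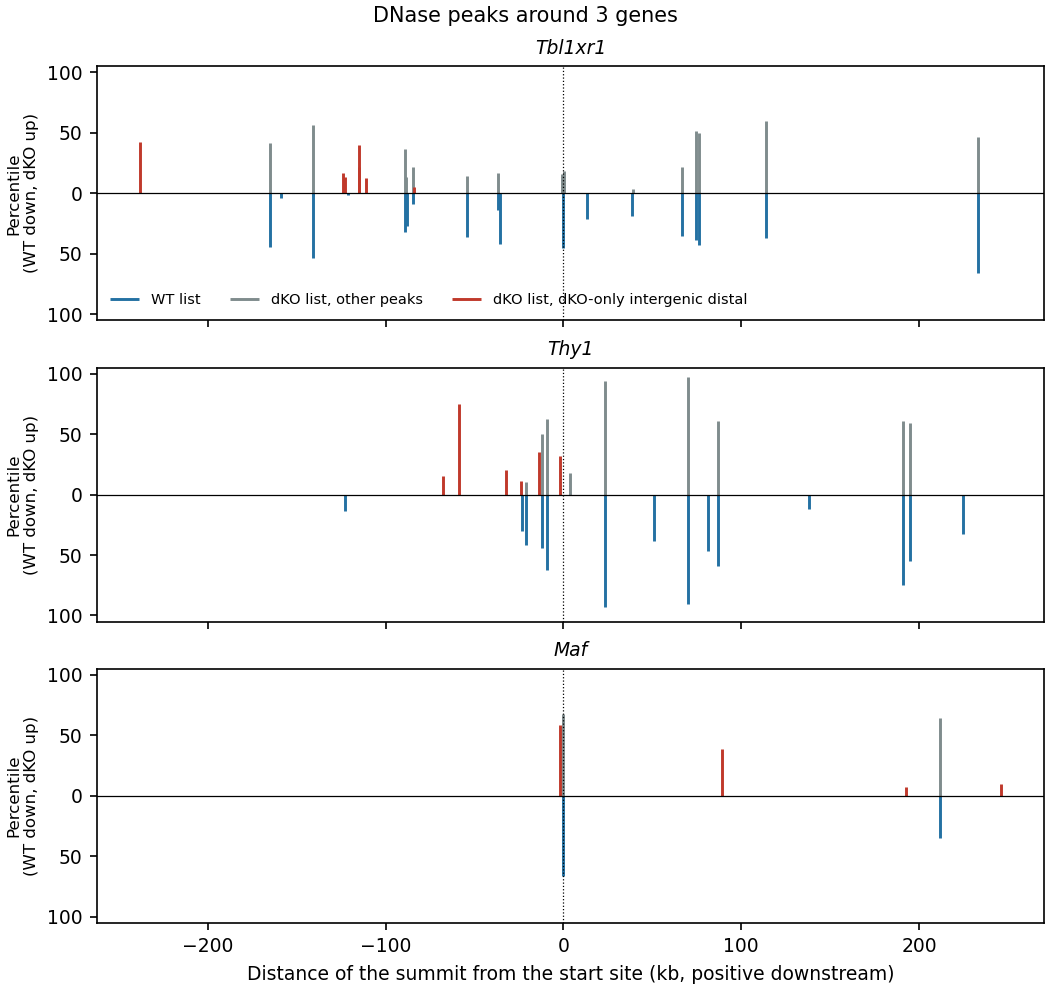
Summits within 250 kb of the TSS of Tbl1xr1, Thy1 and Maf (x axis, kb from the TSS, positive downstream), each line reaching to the percentile of the peak's fold enrichment in its own list (y axis, WT downward, dKO upward). The dKO-only intergenic distal sites (red) overlap no WT peak by the rule that chose them, though WT lines can lie close beside them. At Thy1 the tallest of them reaches 74.8.

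Antigen receptor loci, looked up after sites there had been seen among the strongest, held 22 dKO-only intergenic distal sites (1.496%, 0.990 to 2.25), against 0.263% (0.159 to 0.433) of shared and 0.268% (0.136 to 0.527) of WT-only sites. T cell receptor loci held 10 and immunoglobulin loci 12. In the α/δ locus the sites near Trdv5 (chr14:54766249-54766424 and chr14:54767329-54767480) had 28 and 26 fragments, and another site in the same locus (chr14:54772651-54772750) had 45. The strongest was the β locus site between the V segments Trbv14 and Trbv15, 1.57 kb from the former, with a fold enrichment of 14.6. Repeated words were frequent in the immunoglobulin loci, with 29.8% or more at 5 of the 12 sites. Annotated V segments were counted as genes, so these are sites between segments. Over all dKO-only intergenic distal sites, 4.28% (3.36 to 5.44) had repeated words in at least 50% of the window, against 2.31% (1.95 to 2.74) of shared and 3.65% (3.03 to 4.38) of WT-only sites. The part of repeated sequence, of narrow peaks and of pool depth in the absence of a WT peak was not tested.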

How the data were processed

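DNase-seq libraries of 3 WT and 2 dKO samples of naïve splenic CD8+ T cells had been aligned by the authors to mm9 with Bowtie2 2.2.5, pooled by genotype and passed to MACS2 2.1.1.20160309 without a control library, with at most 1 fragment kept per position. Per the file headers, each alignment file entered both unsorted and sorted, so 50% of the fragments read were removed as redundant. The deposited lists give, for each peak, the pileup of fragments at the summit (a signal), the fold enrichment (a ratio) and −log10 p and −log10 q values as computed by the authors. The samples were grouped by genotype from their labels, and the pooled lists carry no values per replicate, so that shares were described with 95% Wilson intervals and nothing was tested.

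Peaks of the WT and dKO lists were called shared when they overlapped by at least 1 bp. Genes and TSSs came from the GENCODE vM1 annotation of mm9, and sequences from the mm9 genome. Repeated sequence was measured as the share of 31-base words within 100 bp of a summit that occur more than once in the genome. Motifs were searched on both strands within 100 bp of the summit, and shared sites were weighted to dKO-only sites over 25 bins of fold enrichment and GC content (at least 23 shared sites in each). The sites, gene groups and lists were chosen with earlier results of these data known. The CTCF-like word and the antigen receptor loci were added after the strongest sites had been seen, and the pattern for chemokine genes was corrected once so as not to take in Ccrn4l. Described by name were the 12 sites with the highest fold enrichment, the sites in the study's list of differentially accessible sites, the 3 strongest per gene group, those of the 3 largest stretches and those next to the distance limit. Genes of changed expression, super enhancers and hubs came from the lists of the study, the last 2 of which hold only regions tied to genes of changed expression. Overlap, distance and motif steps were tested on simulated data. Python 3.11.15 with numpy 2.4.6, pandas 2.3.3, pysam 0.24.0, numba 0.67.0 and matplotlib 3.10.9, and samtools 1.23.1, were used. Alternatives were other peak filters, overlap rules, TSS distances, gene sets, motif windows and site subsets.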

Additional observations from a re-analysis of the deposited data

How the results depend on the processing

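Of 97 alternative values of the main quantities, 77 were counted as the same and 20 as moved. The same meant within the counting error of the main value, except for the number of sites, where a wider limit was used. None reversed a direction, except that sites lay closer together than WT-only sites (34.4% against 26.5% with another within 50 kb) in the list of 20000 peaks alone. With both lists restricted to a fold enrichment of at least 8, the number of sites was 749, of which 270 had no WT peak of any strength and the others had a WT peak under that limit. Under the same restriction 21.7% of intergenic distal dKO peaks had no WT peak, 19% of sites had another within 50 kb and 27.2% held the CTCF-like word. With q under 1e-10 the values were 967 sites, 17.2% without a WT peak and 26.7% with the word. With the 20000 peaks of highest −log10 p per list, 26.6% had no WT peak and 34.4% of sites had another within 50 kb. With gaps of up to 500 bp counted as shared, these were 18.5% and 26.0%, and with protein-coding genes only, 31.4% had another site within 50 kb. The median percentile was 19.7 under the criteria of the study, 19.1 ranked by −log10 p, 17.2 ranked by pileup and 16.9 for sites without the word. Within 50 bp of the summit, 1.16% held ATCAAAG and 5.37% TGANTCA. For sites wider than 110 bp, a subset chosen after seeing the data, 25.5% had another site within 50 kb and 17.9% held the word. The share nearest to a raised gene was above those of shared and WT-only sites in 12 of 12 settings, that in dKO-prepotent super enhancers in 11 of 11, and the share with ATCAAAG was below that of WT-only sites in 12 of 12. The lists are pools, so the spread between mice is unknown and no replicate could be left out. No paired analysis was possible because each genotype was pooled into 1 peak list before deposit.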
